A study of Mus musculus with 10 samples.

Results

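The unfolded protein response and the integrated stress response were followed through 38 genes, chosen by symbol from textbook knowledge. The choice was made with earlier results of these data known. All 38 were found among the 55471 gene identifiers of the deposited table. The genes are the stress sensors, the translation factor eIF2 alpha and the subunits of its phosphatase, the transcription factors, the chaperones and folding enzymes of the endoplasmic reticulum (ER), the ER degradation machinery, and targets of the transcription factor ATF4. They were read in RNA of the whole brain of 10 wild-type Swiss Webster mouse pups, given in the labels as neonatal day 5, 1 library a pup. All 10 pups had a hypoxic-ischemic brain injury, in which blood flow and oxygen supply to the brain are interrupted. In 5 pups (libraries 1 to 5) the injury was left untreated. The other 5 pups (libraries 6 to 10) received allopregnanolone, a steroid derived from progesterone that enhances the action of GABA at GABA-A receptors. Uninjured brains and treated uninjured brains were not analysed here, so the level of a gene relative to the healthy brain is not part of the comparison, and dose, litter and the interval from injury to collection were not used here.

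When unfolded proteins collect in the ER, the membrane sensors IRE1, PERK and ATF6 raise the folding and degradation capacity of the organelle. PERK belongs to a set of kinases that phosphorylate eIF2 alpha, which lowers general protein synthesis and favours translation of ATF4, the shared output of the integrated stress response. Both responses are known to follow hypoxia and ischemia in the brain. Much of the signal runs through phosphorylation, cleavage of ATF6, splicing of the Xbp1 transcript and translation of Atf4, none of which is measured by the total count of a gene. What is measured here is the amount of transcript of the sensors and of the genes they act on.

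Promoter elements known from these responses are shown because they are a property of the genes that no expression value enters, and they differ between the chaperones and the ATF4 targets. Promoter windows from RefSeq (GRCm38.p6, 250 bases before to 50 after a gene's start, 300 bases in all) were found for 34 of the 38 genes. They were searched on both strands for the ER stress element ERSE, spelled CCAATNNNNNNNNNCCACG, which binds NF-Y and ATF6 or XBP1. It occurred in 0.119% of all 32851 windows, in 7 of 13 chaperone windows and in Syvn1, but in 0 of 8 windows of ATF4 targets. In the following stretches, printed 5′ to 3′ on the strand of the gene, the capitals mark the fixed letters of the element, which read CGTGG and ATTGG where it lies on the other strand.

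Hspa5 (chr2:34772010-34772058, plus strand): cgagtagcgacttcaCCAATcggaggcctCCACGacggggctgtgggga
Hsp90b1, nearer the start (chr10:86705518-86705566, minus strand): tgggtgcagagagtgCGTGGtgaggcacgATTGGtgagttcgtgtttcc
Hsp90b1, farther from the start (chr10:86705623-86705671, minus strand): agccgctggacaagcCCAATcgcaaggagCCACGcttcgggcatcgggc
Calr (chr8:84847060-84847108, minus strand): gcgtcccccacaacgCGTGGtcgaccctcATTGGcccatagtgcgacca
Canx (chr11:50325785-50325833, minus strand): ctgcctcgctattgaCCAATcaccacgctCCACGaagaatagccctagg
Pdia6 (chr12:17266476-17266524, plus strand): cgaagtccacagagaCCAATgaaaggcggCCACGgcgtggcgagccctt
Dnajc3 (chr14:118937812-118937860, plus strand): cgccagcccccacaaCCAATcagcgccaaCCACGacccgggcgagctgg
Creld2 (chr15:88819505-88819553, plus strand): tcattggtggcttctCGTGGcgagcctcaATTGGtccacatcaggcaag
Syvn1 (chr19:6046517-6046565, plus strand): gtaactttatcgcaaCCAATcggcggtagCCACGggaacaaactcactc

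The C/EBP-ATF response element through which ATF4 acts, spelled TGATGNAA, is short and occurred in 3.969% of all windows. Among the 8 ATF4 targets it was found in Asns, Chac1, Nupr1 and, after the start, Trib3, and in 0 of 13 chaperone windows. The 3 matches before the start are shown with the element in capitals; in Chac1 and Nupr1 it lies on the other strand and shows as its reverse complement.

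Asns (chr6:7693210-7693247, minus strand): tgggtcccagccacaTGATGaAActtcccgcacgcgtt
Chac1 (chr2:119351034-119351071, plus strand): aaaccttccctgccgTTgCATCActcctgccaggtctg
Nupr1 (chr7:126625558-126625595, minus strand): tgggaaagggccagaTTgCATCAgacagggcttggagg

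Herpud1, the member that was higher after treatment, held this element together with the shorter ER stress element ERSE-II, spelled ATTGGNCCACG, which was present in 0.037% of all windows and among the members also, after the start, in Dnajb11. Both are in capitals in the following 140 bases that end before the start of the gene.

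Herpud1 (chr8:94386289-94386428, plus strand): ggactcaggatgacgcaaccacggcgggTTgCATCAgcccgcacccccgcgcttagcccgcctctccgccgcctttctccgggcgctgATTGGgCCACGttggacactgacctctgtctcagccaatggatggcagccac

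The unfolded protein response element TGACGTGG, in 0.676% of all windows, was found in 0 of the 34 members. A match describes letters in a window and does not show that a factor binds there, and no match says only that these letters are missing from this window.

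Estimated counts summed to between 18656836 and 34270723 per library, with treated library 6 the deepest, and mitochondrial transcripts took 7.98% to 9.76% of a library. The tissue label was checked against lists of marker genes. These lists were chosen with earlier results of these data known, so their counts of higher or lower genes are no independent evidence. CPM are counts scaled to the size of the library. The summed level of 8 neuron markers was 5750 to 6508 CPM in untreated and 5702 to 6629 CPM in treated libraries. None of the listed markers was at 0 throughout. Of the 8 neuron markers, Gad1 was higher, and Map2 and Tubb3 were lower without overlap between the groups. The sums of some other cell types were apart between the groups, and those of others overlapped. Summed over 9 oligodendrocyte markers, all 9 of which were higher, the level was 1956 to 3764 CPM in untreated and 5792 to 7811 CPM in treated libraries. The sum over 8 endothelial markers, 4 of them higher, went from 233 to 255 CPM up to 312 to 341 CPM, whereas that over 7 cycling-cell markers, 7 of them lower, went from 70.6 to 115 CPM down to 51.5 to 57.7 CPM. Over 7 young neuron markers, 5 of them lower, the range was 473 to 610 CPM untreated and 330 to 399 CPM treated. Activated myeloid markers, 5 of 6 tested lower, ranged from 4.81 to 88.6 CPM in untreated libraries, with untreated 1 highest, and from 4.34 to 14.3 CPM in treated ones. Midbrain markers, 7 of 7 higher, ranged from 6.83 to 18.9 CPM untreated and from 13.3 to 106 CPM treated. Treated 6, 7 and 9 were high, at 106, 80.4 and 56.3 CPM. Treated 8 and 10, at 13.9 and 13.3 CPM, lay within the untreated range. Astrocyte markers, 5 of 10 higher and 0 lower, summed to 3002 to 3689 CPM untreated and 3677 to 4145 CPM treated. Their log2 fold changes were above 0 for 8 and below 0 for 2, Gfap (-0.86) and Aqp4 (-0.33). Microglia markers, 1 of 8 higher and 0 lower, summed to 266 to 360 CPM and 271 to 291 CPM. Of their log2 fold changes 2 were above 0 and 6 below. Choroid plexus markers, 0 of 6 higher and 0 lower, varied widely within groups. They summed to 106 to 852 CPM untreated and 345 to 924 CPM treated. Red cell markers, 1 of 6 higher (Slc4a1) and 0 lower, had sums that overlapped between the groups. Their log2 fold changes were above 0 for all 6. In whole-brain RNA, fewer cells of a type and less RNA per cell cannot be told apart, and the part of these differences in the values that follow was not tested.

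The comparison asks which of these transcripts differ in the injured brain once allopregnanolone has been given. The stress-response genes differed little between treated and untreated injured brains, and so did most genes tested. The median size of the log2 fold change, sign ignored, was 0.12 over the members and 0.14 over all genes. Of the 37 members with enough counts to test, Herpud1 rose by 1.17-fold and Eif2s1 was 1.21-fold lower with allopregnanolone, and the other 35 did not pass the threshold, an adjusted p under 0.05 in edgeR's quasi-likelihood test with Benjamini-Hochberg adjustment over all 17101 genes. The share called was 5.41% of the members, beside 11.3% of all genes tested, 6.61% higher and 4.65% lower, and the difference between these shares was not tested. At an unadjusted p under 0.05 there were 6 members higher and 4 lower, beside 2463 higher and 2237 lower of all 17101 genes. Counts at this p given below for role groups and lists are to be read beside these. The median log2 fold change rounded to -0.00 over the members as over all genes, with 18 members above 0 and 19 below.

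What the data limit is the size of any change in these genes. The largest estimates were 1.23-fold up (Ddit3) and 1.21-fold down (Eif2s1), and 21.1% of all genes tested had a larger log2 fold change in either direction than any member. For 34 of the 37 members the 95% interval of the fold change, not adjusted over genes, lay within 1.5-fold in either direction. The exceptions, Ddit3, Sesn2 and Nupr1, reached at most 1.55, 1.54 and 1.63-fold. The median size of the log2 fold change, sign ignored, was 0.12 over the members and 0.14 over all genes. Treated and untreated libraries overlapped for 34 of the 37. All 5 treated libraries lay above all untreated ones for Herpud1 and Ppp1r15b, and below them for Eif2s1. Over all genes the groups did not overlap for 9.64%, with the treated libraries above for 5.44% and below for 4.2%.

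**Figure D1:**
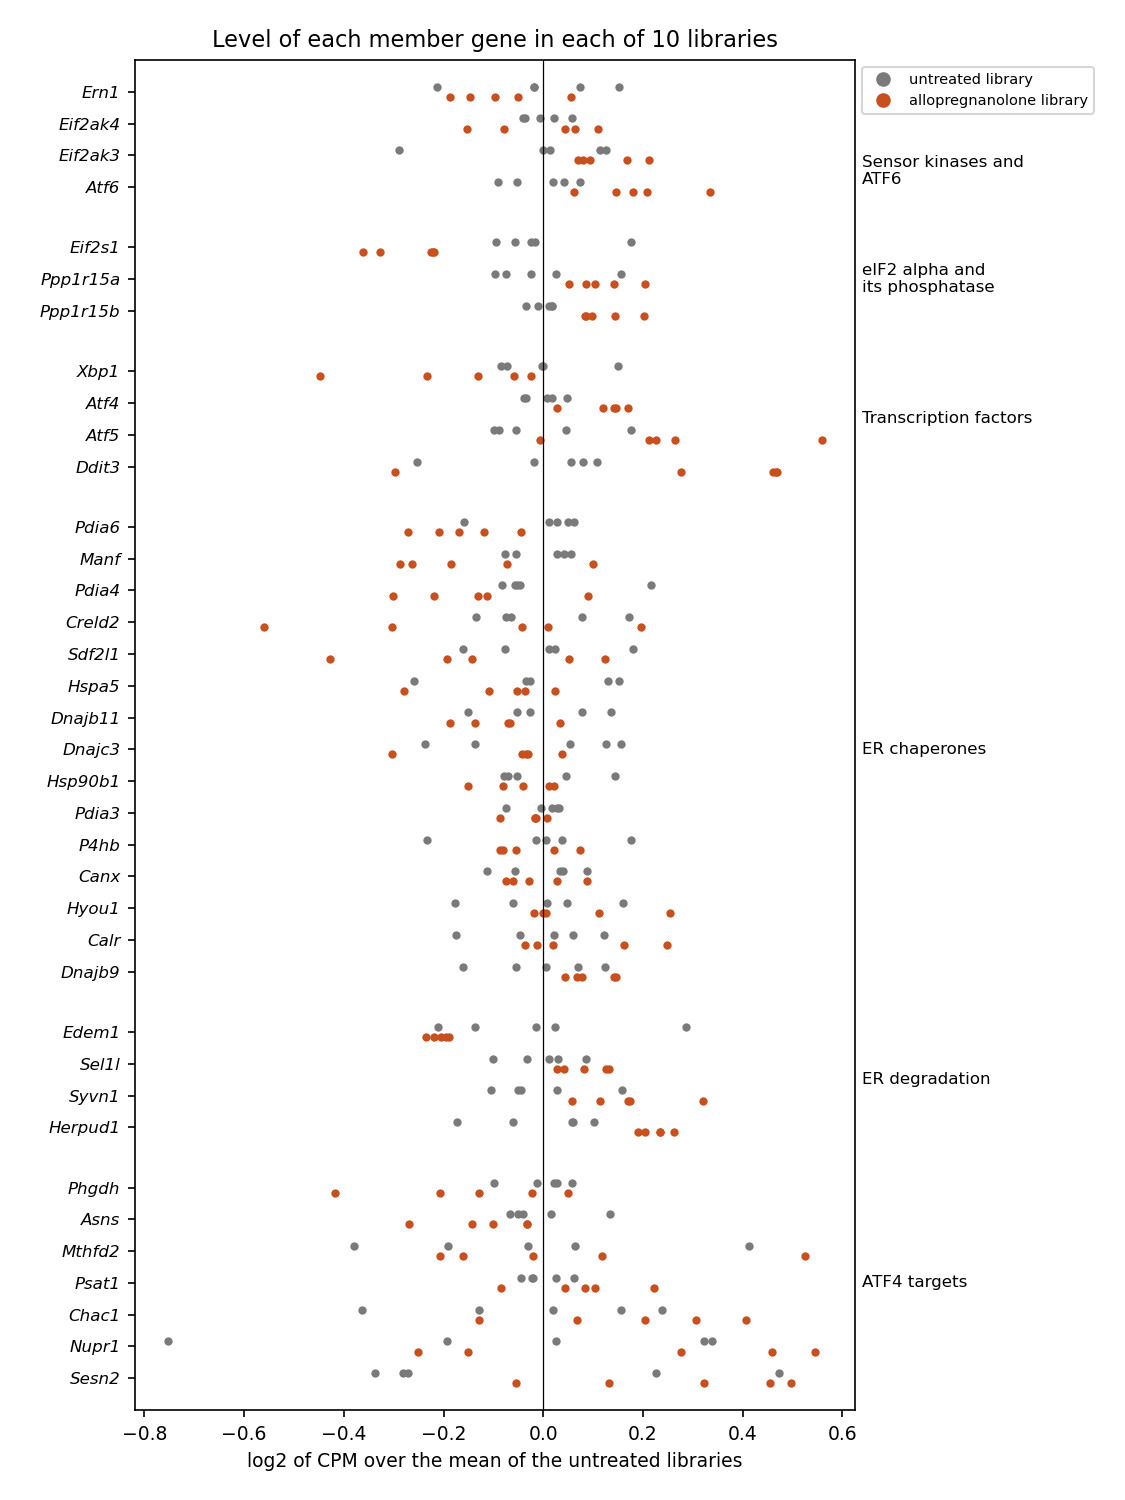
Level of each of the 37 tested members in each library, as log2 of CPM over the mean of the untreated libraries (horizontal axis), grouped by role, with 1 point per library, grey for the 5 untreated and orange for the 5 allopregnanolone libraries. The colours are mixed for 34 genes and separate for Eif2s1, Ppp1r15b and Herpud1.

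**Figure D2:**
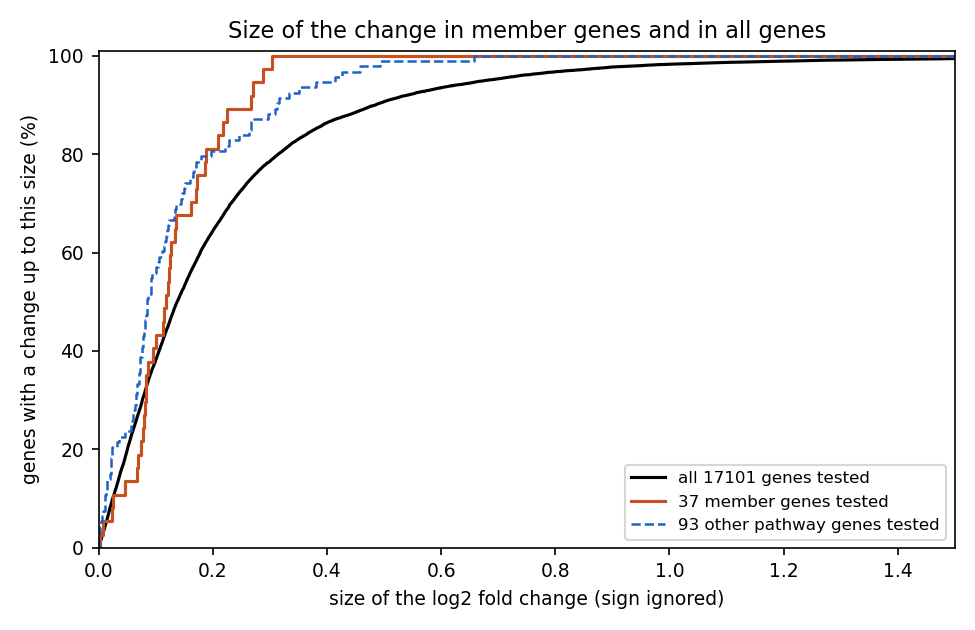
Cumulative share of genes (vertical axis, %) against the size of the log2 fold change with the sign ignored (horizontal axis), for all 17101 genes tested, the 37 members and the 93 other pathway genes. The line of the members reaches 100% at 0.30, where 21.1% of all genes still lie beyond.

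Both calls were lost when 3 untreated libraries were left out, and that of Herpud1 also without some single libraries. The library names of untreated 1 to 3 carry another prefix than those of the other 7 libraries; what the prefix stands for is not given in the labels. Without these 3, with 2 untreated libraries left, 0.638% of all genes and 0 of the 37 members passed edgeR's test. The log2 fold changes were then -0.32 for Eif2s1 (adjusted p = 0.141) and 0.22 for Herpud1 (adjusted p = 0.179). Scaling by library totals alone in place of TMM turned the split over all genes from 1131 higher and 795 lower to 783 higher and 1451 lower, with the median of all genes at -0.06.

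None of the sensors passed the test, 0 of 4 by edgeR, with 1 at an unadjusted p under 0.05 and 1 by DESeq2, Atf6 in each case. Atf6, the membrane-bound transcription factor that is cut free in the Golgi, stood at 43.9, 45.5, 41.7, 40.6 and 44.5 CPM in untreated libraries 1 to 5 and at 45.1, 49.0, 47.8, 49.9 and 54.5 CPM in treated libraries 6 to 10. Only treated 6 lay within the untreated range. The fold was 1.14 (95% interval 1.05 to 1.24, adjusted p = 0.0504 in edgeR's quasi-likelihood test), and it passed in 5 of 22 alternative analyses. Eif2ak3, which encodes PERK, averaged 21.0 ± 2.30 CPM without and 22.9 ± 0.992 CPM with treatment. Values written in this way are a group's mean and SD (n = 5 libraries). Its exons overlap those of Gm43292 on the opposite strand over 8.0% of their bases. Ern1, which encodes IRE1, averaged 11.1 ± 1.03 CPM against 10.5 ± 0.693 CPM. Eif2ak4, which encodes GCN2, the sensor of uncharged transfer RNA, was at 27.3 ± 0.783 CPM in untreated and 27.3 ± 2.03 CPM in treated libraries, a log2 fold change of 0.00 whose interval spanned 0.912 to 1.09-fold. Intervals over the 4 sensors together ran from 0.826 to 1.24-fold.

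Eif2s1 encodes eIF2 alpha, the subunit of the initiation factor that the stress kinases phosphorylate, and lies on chromosome 12 from 78861819 to 78887010 (GRCm38, plus strand). It measured 29.5, 29.3, 28.7, 33.7 and 27.9 CPM in untreated libraries 1 to 5 and 23.2, 23.8, 25.6, 25.5 and 25.6 CPM in treated libraries 6 to 10. Every treated library was below the lowest untreated one, and untreated 4 stood apart above the rest. The log2 fold change was -0.27 with a standard error of 0.06 (95% interval 0.754 to 0.912-fold, adjusted p = 0.0171 in edgeR's quasi-likelihood test), and the call held when any 1 of the 10 libraries was left out.

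The phosphatase subunits did not pass the test. Ppp1r15b, the constitutive subunit that directs the phosphatase to eIF2 alpha, stood at 46.9, 46.0, 45.3, 46.9 and 46.7 CPM without treatment and 49.6, 49.2, 53.3, 49.1 and 51.2 CPM with it. The groups did not overlap, yet the difference was small, at 1.09-fold with an interval of 1.02 to 1.16-fold and an adjusted p of 0.0838 in edgeR's test. Its exons overlap those of Gm26616 on the opposite strand over 11.4% of their bases, and the strand setting of the counting is not given in the sources used here. Ppp1r15a, the stress-induced subunit GADD34, averaged 21.1 ± 1.51 CPM untreated and 22.9 ± 0.927 CPM treated.

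The transcription factors split in sign without a call: 0 of 4 passed by edgeR, 2 higher and 1 lower at an unadjusted p under 0.05, and 2 higher by DESeq2 (Atf4 and Atf5). Atf4, the main effector of the integrated stress response, measured 106, 112, 105, 109 and 109 CPM untreated and 119, 120, 122, 118 and 110 CPM treated. Treated 10 alone fell within the untreated range, and the fold was 1.09 (interval 1.02 to 1.16, adjusted p = 0.0878 in edgeR's test). Atf5, a related factor that acts on mitochondrial and ER stress, was at 32.4, 33.4, 35.8, 32.7 and 39.3 CPM without treatment and 51.2, 41.7, 34.6, 40.6 and 40.2 CPM with it. Treated 6 was far above and treated 8 within the untreated range, and the 1.20-fold difference had an interval of 1.05 to 1.38-fold and an adjusted p of 0.0741 in edgeR's test.

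Ddit3 encodes CHOP, the factor linked to cell death under lasting stress, and was scarce. It measured 4.76, 3.71, 4.59, 4.67 and 4.36 CPM untreated and 6.11, 6.08, 6.11, 5.35 and 3.59 CPM treated. Treated 6 to 9 were above every untreated library and treated 10 below all of them, and the interval reached from 0.985 to 1.55-fold (adjusted p = 0.216 in edgeR's test). Without treated 10 the log2 fold change was 0.42 with an adjusted p of 0.0489. A second identifier of the same name, contained in its exons, held 0 counts. Xbp1, the target of IRE1 splicing, averaged 51.1 ± 3.39 CPM untreated and 45.4 ± 5.14 CPM treated, with treated 9 lowest at 37.5 CPM, an adjusted p of 0.162 in edgeR's test and no information here on the spliced form.

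The ER chaperones and folding enzymes formed the most abundant role group by summed level, and none of them was called. Of 15, 0 passed by edgeR, 1 (Pdia6) was lower at an unadjusted p under 0.05, and 0 passed by DESeq2 or limma. Their summed level was 1449 to 1560 CPM in untreated and 1406 to 1572 CPM in treated libraries, and no interval over the 15 genes left the range of 0.755 to 1.17-fold. The log2 fold change was below 0 for 12 of the 15, with a median of -0.07, and for 8692 of all 17101 genes. The sign count was not tested, and the summed levels overlapped between the groups.

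Hspa5 encodes BiP, the chaperone whose release from the sensors sets off the response and whose transcript is a standard readout of ER stress. It was at 155, 138, 139, 157 and 118 CPM in untreated libraries 1 to 5 and at 144, 136, 138, 116 and 131 CPM in treated libraries 6 to 10. The groups overlapped, with untreated 5 and treated 9 lowest at nearly the same level. The fold was 0.942 with an interval of 0.839 to 1.06 (adjusted p = 0.510 in edgeR's test), so that a rise above 1.06-fold or a fall below 0.839-fold lies outside the interval. Hsp90b1, the ER member of the Hsp90 family (GRP94), averaged 168 ± 11.4 CPM against 163 ± 7.97 CPM. It shares 10.3% of its exon bases with 1810014B01Rik on the opposite strand.

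The lectin chaperones Calr and Canx, which hold glycoproteins in the ER until folded, averaged 414 ± 31.9 and 205 ± 11.4 CPM untreated, and 438 ± 38.2 and 204 ± 9.59 CPM treated. Their intervals were 0.954 to 1.17-fold and 0.920 to 1.07-fold. Pdia3, the disulfide isomerase that works with them, had the narrowest interval of the set, 0.923 to 1.05-fold, at 169 ± 5.07 CPM against 166 ± 4.03 CPM.

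The other disulfide isomerases form and rearrange disulfide bonds. P4hb averaged 88.5 ± 8.87 CPM untreated and 87.1 ± 4.26 CPM treated, and Pdia4 29.2 ± 2.66 CPM against 26.7 ± 2.78 CPM. Pdia6, which also attenuates IRE1 and PERK, was at 43.3, 42.7, 43.7, 42.2 and 37.5 CPM without treatment and 36.2, 34.7, 40.6, 37.3 and 38.6 CPM with it. Untreated 5 alone lay among the treated libraries. The fold was 0.894 (interval 0.819 to 0.976, adjusted p = 0.0923 in edgeR's test), and without untreated 5 the log2 fold change was -0.20 with an adjusted p of 0.0325.

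The J-domain partners of BiP went in both directions without passing the test. Dnajb9, which keeps IRE1 in check, averaged 41.6 ± 3.16 CPM untreated and 44.5 ± 1.42 CPM treated. Dnajb11 averaged 27.9 ± 2.17 CPM against 26.3 ± 1.54 CPM, and Dnajc3, the co-chaperone p58IPK, 26.2 ± 3.05 CPM against 25.0 ± 2.17 CPM. Hyou1, a nucleotide exchange factor of BiP, was at 80.8 ± 6.98 CPM untreated and 85.1 ± 6.97 CPM treated.

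Among the remaining chaperone genes, Manf, a secreted ER protein with neurotrophic activity, averaged 47.3 ± 1.97 CPM untreated and 43.1 ± 4.90 CPM treated (adjusted p = 0.237 in edgeR's test). Creld2, another ER resident induced by stress, averaged 7.21 ± 0.641 CPM against 6.65 ± 1.31 CPM. Sdf2l1, a partner of Dnajb11, averaged 5.23 ± 0.465 CPM against 4.86 ± 0.718 CPM. These low counts gave the widest intervals of the group, 0.755 to 1.13-fold for Creld2 and 0.771 to 1.13-fold for Sdf2l1.

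The members can also be listed by the ERSE in the promoter. Of the 8 members with the element in their window, 0 passed edgeR's test, and their median log2 fold change was -0.06, from -0.16 for Pdia6 to 0.17 for Syvn1. Of the 25 tested members with a window but no ERSE, 2 passed (Herpud1 and Eif2s1), and the median was 0.07. The ERSE-II was not counted here, so Herpud1 and Dnajb11, which hold that shorter ER stress element, are among those without an ERSE. With 11.3% of all genes called, these counts of called genes are too small to say anything about the element, and the difference between the 2 sets was not tested.

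**Figure D3:**
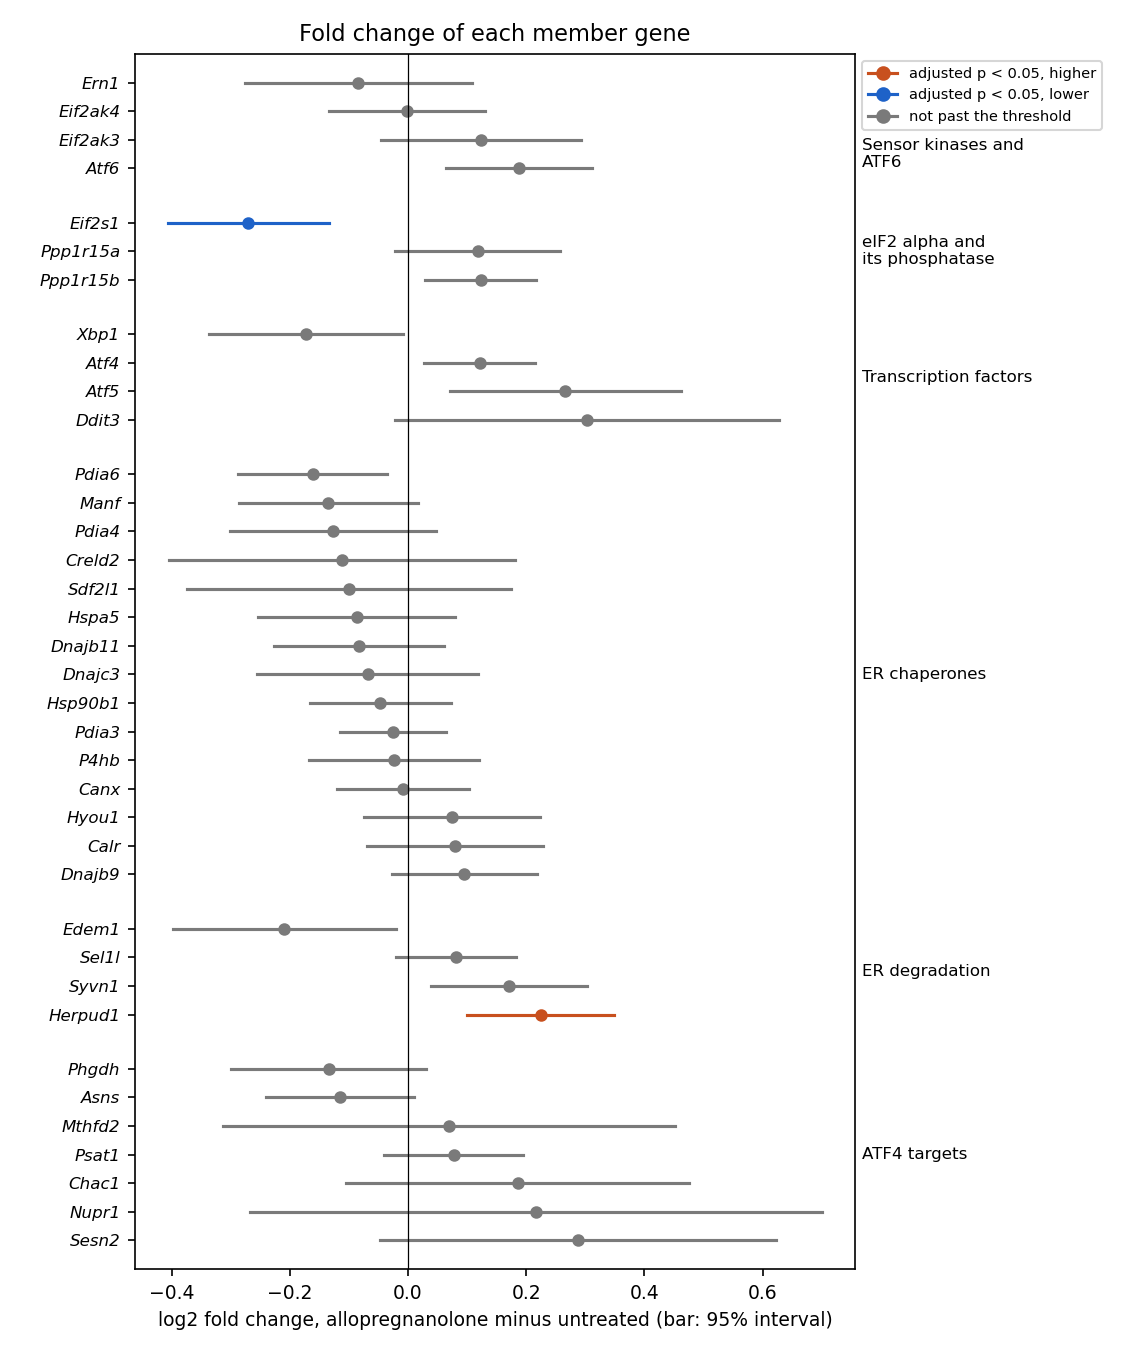
Log2 fold change, allopregnanolone minus untreated (horizontal axis), of each of the 37 tested members by role; points are estimates from edgeR and bars 95% intervals, orange for adjusted p under 0.05 and higher, blue for lower, grey for the rest. Herpud1 at 0.22 and Eif2s1 at -0.27 are the coloured genes, and 12 of 15 ER chaperones have estimates below 0 with intervals that, but for Pdia6, include 0.

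ER degradation was the role group with a gene that rose. Herpud1 (chromosome 8, 94386438 to 94395377, GRCm38, plus strand) encodes an ER membrane protein with a ubiquitin-like domain that organises the ubiquitin ligase complex for misfolded proteins. It measured 34.4, 33.4, 28.4, 30.7 and 33.4 CPM in untreated libraries 1 to 5 and 36.6, 37.7, 38.5, 37.0 and 37.7 CPM in treated libraries 6 to 10. Every treated library was above the highest untreated one, and the treated spread was narrow (SD 0.748 CPM against 2.45 CPM). The log2 fold change was 0.22 with a standard error of 0.06 (95% interval 1.07 to 1.27-fold, adjusted p = 0.0255 in edgeR's quasi-likelihood test). The call passed in 14 of 22 alternatives. It was lost without untreated 3 (adjusted p = 0.0628), untreated 4 (0.0653), treated 7 (0.0509), treated 8 (0.0519) or treated 10 (0.0501), with library totals alone (0.0666) and with libraries thinned to equal depth (0.0569).

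The partners of Herpud1 did not pass. Syvn1, the ubiquitin ligase Hrd1, was at 78.7, 79.1, 83.1, 75.7 and 90.9 CPM without treatment and 102, 91.7, 88.2, 91.9 and 84.8 CPM with it, a fold of 1.13 (interval 1.03 to 1.23, adjusted p = 0.0884 in edgeR's test). Untreated 5 was the sample that overlapped, and without it the adjusted p was 0.0298. Sel1l, the adaptor of that ligase, averaged 139 ± 6.74 CPM against 147 ± 4.89 CPM, with an interval of 0.987 to 1.14-fold.

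Edem1, which recognises trimmed mannose on misfolded glycoproteins, pointed the other way. It was at 23.1, 19.3, 17.2, 18.8 and 16.4 CPM in untreated libraries and at 16.6, 16.3, 16.4, 16.6 and 16.1 CPM in treated ones. The treated libraries were almost equal, with a coefficient of variation of 1.27%, whereas the untreated ones varied by 13.7%, led by untreated 1. The difference did not pass the test (adjusted p = 0.141 by edgeR). Untreated 1 also held the highest sum of activated myeloid markers, 88.6 CPM, and their part in its Edem1 level was not tested. Summed over the 4 degradation genes, the level was 255.0 to 282.9 CPM untreated and 285.9 to 298.3 CPM treated, without overlap. The largest parts of this sum were Sel1l and Syvn1, at untreated means of 139 and 81.5 CPM, and each of these overlapped between the groups. Over all single genes, the groups did not overlap for 9.64%. The sum over 16 further degradation genes overlapped, at 795 to 820 CPM untreated and 806 to 850 CPM treated. The sums were not tested.

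The ATF4 targets showed no call in either direction. Of the 7 tested, 0 passed by edgeR, 0 had an unadjusted p under 0.05, and 0 passed by DESeq2 or limma. The sum over the 8 genes was 203 to 220 CPM untreated and 193 to 227 CPM treated. Asns, which makes asparagine and is a classic ATF4 target, averaged 61.8 ± 3.61 CPM untreated and 57.2 ± 3.79 CPM treated, an interval of 0.847 to 1.01-fold (adjusted p = 0.226 in edgeR's test).

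The serine and one-carbon enzymes did not pass the test. Their intervals were 0.813 to 1.02-fold for Phgdh, 0.972 to 1.15-fold for Psat1 and 0.805 to 1.37-fold for Mthfd2. Phgdh, which starts serine synthesis from glycolysis, averaged 35.7 ± 1.47 CPM against 32.4 ± 3.96 CPM, and Psat1, the next enzyme, 78.1 ± 2.34 CPM against 82.4 ± 6.27 CPM. Mthfd2, a mitochondrial folate enzyme, averaged 4.17 ± 0.885 CPM against 4.39 ± 0.963 CPM.

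The stress-inducible targets varied widely within groups. Sesn2, which restrains mTORC1 when leucine is short, was at 18.0, 26.7, 18.9, 18.8 and 31.6 CPM without treatment and 28.5, 22.0, 25.0, 32.2 and 31.3 CPM with it. Untreated 1, 3 and 4 were low while untreated 2 and 5 lay among the treated libraries, and the interval was wide, 0.968 to 1.54-fold (adjusted p = 0.255 in edgeR's test). Without untreated 5 its log2 fold change was 0.43 with an adjusted p of 0.0482. Chac1, which breaks down glutathione, averaged 6.47 ± 1.03 CPM untreated and 7.35 ± 1.04 CPM treated. Nupr1, a small stress-induced nuclear protein, averaged 2.63 ± 0.735 CPM against 3.04 ± 0.728 CPM, with an interval of 0.831 to 1.63-fold.

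Trib3, a pseudokinase induced by CHOP, was not tested, since too few libraries held 10 counts. It had 0 to 13 counts a library. It ranged from 0.139 to 0.302 CPM in untreated libraries and from 0 to 0.415 CPM in treated ones, with 0 counts in treated 8 and 10. Intervals over the 7 tested targets together ran from 0.805 to 1.63-fold.

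Per length, the folding machinery dominated the set. Divided by exon length and averaged over the 10 libraries, Calr stood highest at 148 CPM per 1000 exon bases, followed by Pdia3 at 53.3, Atf4 at 47.9, Canx at 43.6, Hsp90b1 at 41.0, Hspa5 at 32.5 and P4hb at 30.7 on the same scale. Atf4, whose output is set mainly by translation, was thus the only member outside the chaperones among the 7 highest. The sensors lay low, from 1.32 CPM per 1000 exon bases for Ern1 to 5.01 for Atf6. Mthfd2, Nupr1 and Trib3 were lowest at 1.23, 1.13 and 0.101 on this scale.

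**Figure D4:**
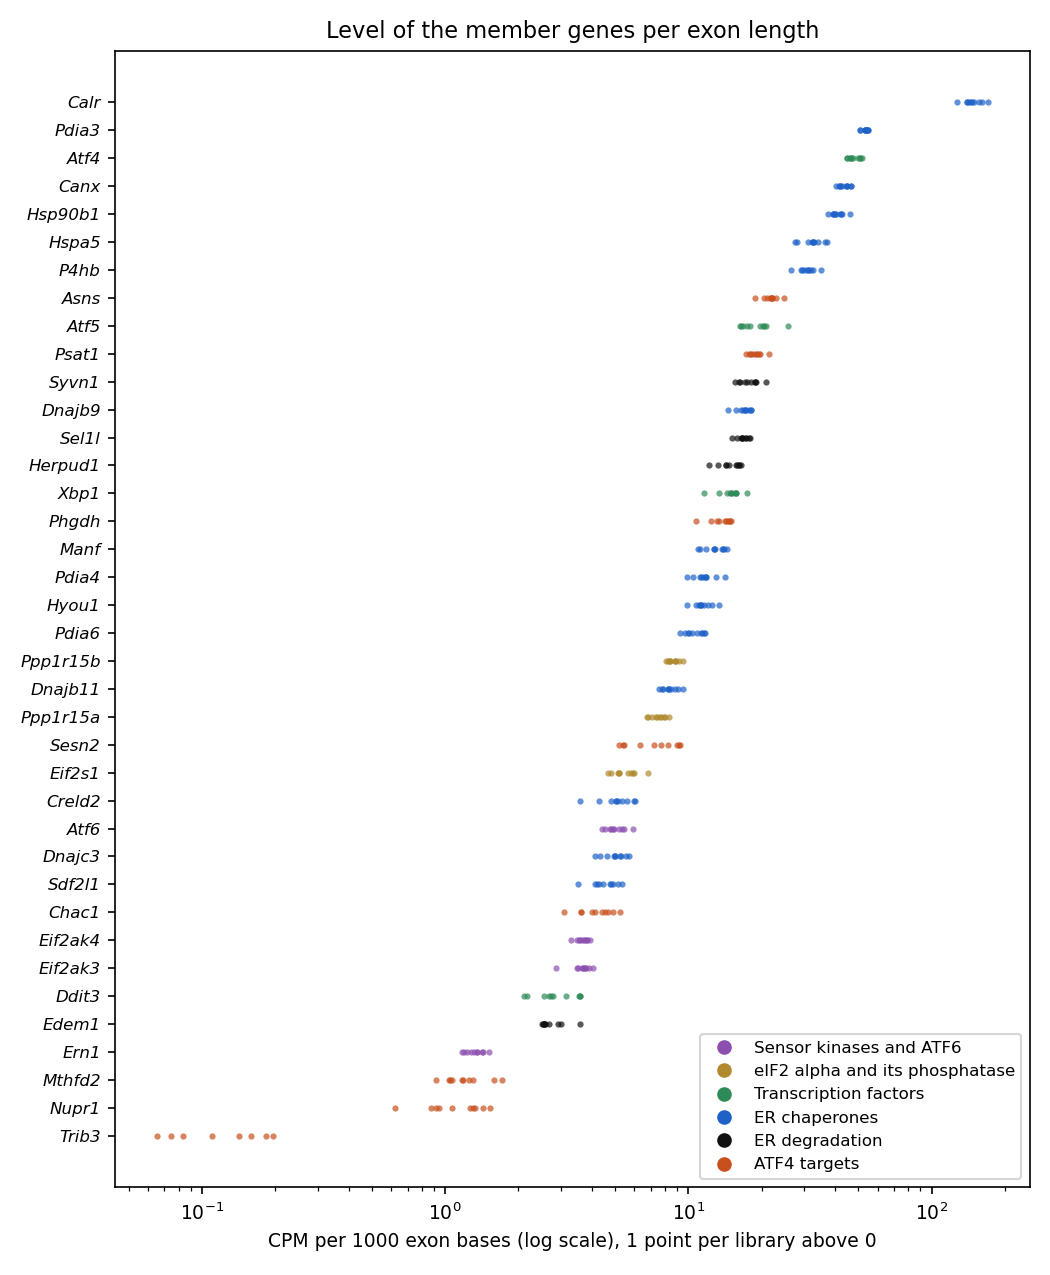
Level of each of the 38 members in CPM per 1000 exon bases (horizontal log axis), 1 point per library above 0, coloured by role and ordered by the mean. Calr is highest at 148 and Trib3 lowest at 0.101, and the libraries of a gene lie close together compared with the distance between genes.

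The wider pathway was read from 95 further genes in 6 lists, of which 93 had enough counts. In edgeR's test 7 were higher and 3 lower, 10.8% of those tested, beside 11.3% of all genes. Without the 3 untreated libraries of another name prefix, 0 of these genes passed. The calls lay mostly in 1 list. Among further targets of ATF4 and CHOP, 5 of 19 tested rose and 2 fell, with a median log2 fold change of 0.09.

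Gpt2, the mitochondrial alanine aminotransferase, had the smallest p of these. It measured 46.0, 44.6, 41.9, 43.9 and 44.7 CPM untreated and 52.0, 55.3, 61.8, 60.1 and 65.9 CPM treated. All treated libraries were higher, by 1.33-fold on average (interval 1.21 to 1.46, adjusted p = 0.0018 in edgeR's test). Pck2, the mitochondrial phosphoenolpyruvate carboxykinase, was at 8.36, 7.28, 10.4, 7.95 and 8.99 CPM without treatment and 14.6, 12.3, 10.7, 10.4 and 12.4 CPM with it, a 1.41-fold rise (adjusted p = 0.0197). Untreated 3 was nearly level with treated 9, and without untreated 4 the adjusted p was 0.0561.

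Jdp2, a leucine-zipper repressor, rose by 1.37-fold from 14.5 ± 1.31 to 20.0 ± 2.75 CPM (adjusted p = 0.0114 in edgeR's test), with 7.7% of its exon bases overlapped by Gm47863 on the opposite strand. Slc3a2, the shared heavy chain of several amino acid transporters, rose by 1.13-fold from 108 ± 3.44 to 122 ± 4.31 CPM (adjusted p = 0.0210). Its call was lost without untreated 3 (adjusted p = 0.0604), untreated 4 (0.0547) or treated 10 (0.0510), and with library totals alone (0.0954). Outside the naming rule and chosen after their values were seen, its partner Slc7a5 rose by 1.17-fold (adjusted p = 0.0410), while the lipoprotein receptor gene Vldlr was 1.17-fold lower (adjusted p = 0.0394) and the cystine carrier Slc7a11 was 1.20-fold lower (adjusted p = 0.0481), all by edgeR. Genes of this list thus moved both ways while the 7 tested members that are ATF4 targets showed no call. Whether the 2 sets differ was not tested.

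Among further sensors and regulators, 1 of 18 rose and 1 fell. Mbtps2, the site-2 protease that completes the cleavage of ATF6 and of the sterol regulators, was at 32.7, 36.1, 38.1, 37.8 and 34.3 CPM without treatment and 25.9, 27.1, 27.9, 30.7 and 30.5 CPM with it. No treated library reached the lowest untreated one, and the gene was 1.26-fold lower (interval 0.720 to 0.875-fold, adjusted p = 0.00748 in edgeR's test). Its exons share 28.4% of their bases with Yy2 on the same strand, so reads of these genes may have been split between them and the value is uncertain. Wfs1, an ER membrane protein of calcium balance, rose by 1.28-fold from 108 ± 15.5 to 138 ± 15.9 CPM (adjusted p = 0.0331), but its call was lost when any 1 of untreated 1 to 4, treated 6 or treated 8 to 10 was left out, with adjusted p from 0.050 to 0.0875.

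The remaining lists were nearly silent. Of 16 further ER folding and translocation genes, 0 passed by edgeR, 1 was lower at an unadjusted p under 0.05 and 1 was lower by DESeq2 (Sec61a1, the channel subunit of the translocon, 1.09-fold lower). Of 16 further degradation genes, 0 passed by edgeR or DESeq2 and 2 were higher at an unadjusted p under 0.05. Of 12 transfer RNA synthetases controlled by ATF4, 0 passed by either tool, with 1 higher and 1 lower at an unadjusted p under 0.05.

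Among 12 cytosolic and mitochondrial heat shock genes 1 rose, Cryab, a small heat shock protein that is abundant in oligodendrocytes and astrocytes. It went from 45.9 ± 9.21 to 59.8 ± 4.70 CPM, 1.30-fold, with an adjusted p of 0.0473 in edgeR's test. Hspb2 on the opposite strand overlaps 17.0% of its exon bases. The call of Cryab was lost when any 1 library other than untreated 5 and treated 6 was left out, with adjusted p from 0.0631 to 0.116. The oligodendrocyte marker sums that do not overlap between the groups stand beside this value, and their part in it was not tested. Hspa1a and Hspa1b, which are near-identical copies, are counted in the list like the others, and their separate values are uncertain.

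**Figure D5:**
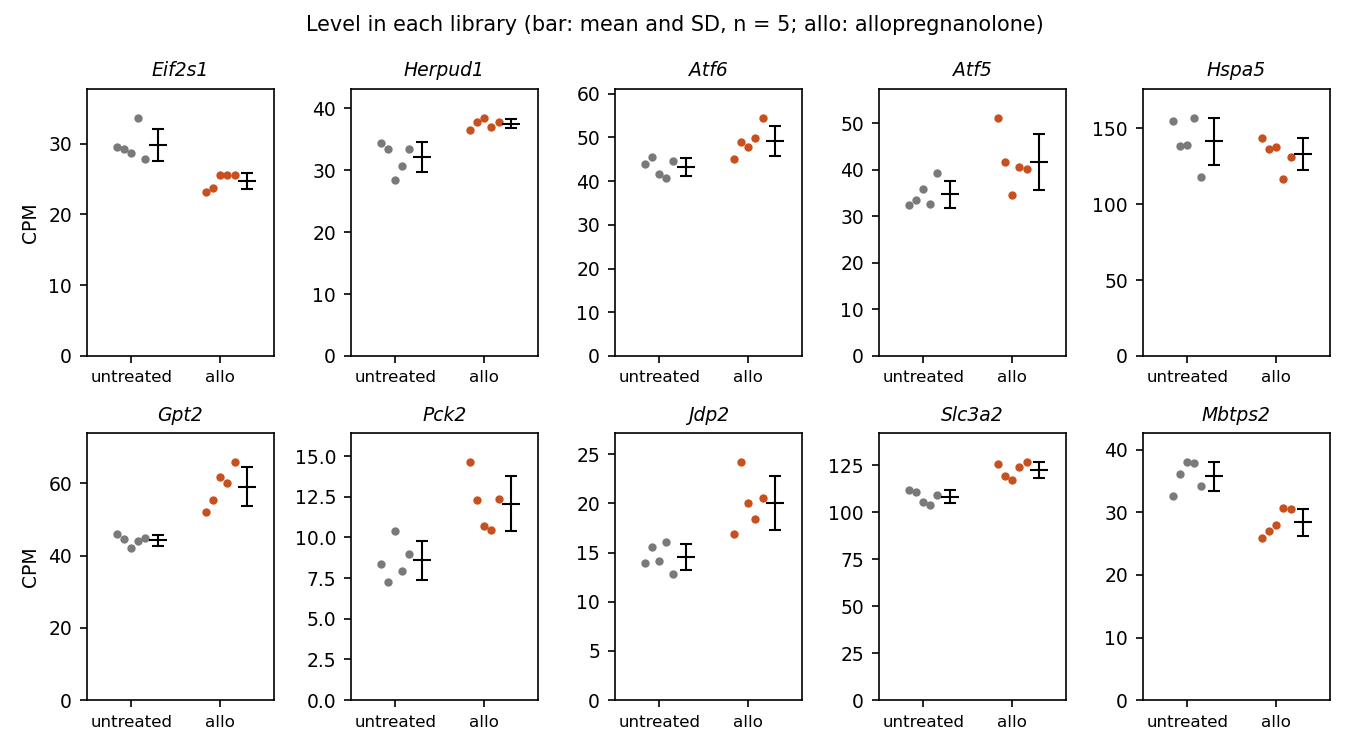
CPM (vertical axes from 0) of 5 members (upper row) and 5 other pathway genes (lower row) in each of the 5 untreated and 5 allopregnanolone (allo) libraries, with the mean and SD beside each group. Groups are apart for Eif2s1, Herpud1, Gpt2, Pck2, Jdp2, Slc3a2 and Mbtps2, and overlap for Atf6, Atf5 and Hspa5.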

How the data were processed

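The values are a gene table of estimated counts, as deposited by the authors, for 55471 Ensembl identifiers in 10 libraries. The table is called normalized, but 86.8% to 87.6% of its values above 0 are whole and library totals differ, so the values were rounded and treated as counts. RNA came from a Qiagen RNeasy kit and strand-marking NEBNext libraries, per the labels' protocols. Partek and mm10 are named in the submitters' processing notes. For the aligner, the counter, its strand setting and the annotation, the entry is: not given in the sources used here.

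Gene names and coordinates came from GENCODE M21 (GRCm38), which named 55230 identifiers. Genes with 10 or more counts in at least 5 libraries were kept (17101 genes, 99.9% of the counts of each library). Groups were compared by the two-sided quasi-likelihood test of edgeR 4.0.16 with TMM factors (0.953 to 1.04) in R 4.3.3, without covariates, with a Benjamini-Hochberg adjusted p under 0.05 over all kept genes. Log2 fold changes are treated minus untreated; intervals use the moderated degrees of freedom. CPM is scaled by TMM. Pups were taken as separate animals; if they are not, p-values measure only the spread between these samples. The procedure was tested on simulated data whose planted changes were all larger than any member's estimate. Recovery of changes as small as those of the members was not simulated.

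All 38 members are named, and of the other pathway lists up to 4 genes past the threshold by smallest p. The members and lists were chosen with earlier results of these data known. DESeq2 1.42.0 and limma 3.58.1 were among 22 alternatives, 10 of which left out 1 library. Promoter windows came from RefSeq; 4 members had no window. Figures used matplotlib 3.10.9.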

Additional observations from a re-analysis of the deposited data

Results flagged for a closer look

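In each group of 5 libraries, the CPM of the 38 members and of 7 named pathway genes were checked for a library far from the rest, taken as a gap to the nearest library over 0.71 of the whole range. Of 90 such groups 6 met this, and chance gives about 1 in 20. Eif2s1 in untreated 4 was 33.7 CPM, against 27.9 to 29.5 CPM in the other untreated libraries, and the call of Eif2s1 held without it. Pdia4 in untreated 1 was 34.0 CPM, against 27.6 to 28.3 CPM. Pdia6 in untreated 5 was 37.5 CPM, against 42.2 to 43.7 CPM, and Pdia6 passed the test without that library. Pdia3 in treated 9 was 159 CPM, against 167 to 170 CPM. Dnajc3 in treated 7 was 21.2 CPM, against 25.4 to 26.9 CPM. Cryab in treated 6 was 51.6 CPM, against 60.2 to 62.7 CPM. No cause was tested for any of these.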

How the results depend on the processing

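Over 22 alternatives no call changed sign. Eif2s1 passed in 21 and Herpud1 in 14. Members higher numbered 1 as reported, 2 with median-of-ratios scaling, a filter of 100 counts or robust empirical Bayes, 4 with DESeq2, and 0 with library totals alone, thinned libraries or without the 3 libraries of another name prefix. Members lower numbered 2 with library totals alone, the second being Pdia6, which also made 1 chaperone lower, and 0 without the 3 libraries. ER degradation genes higher numbered 0 with library totals alone, thinning or without the 3 libraries. Over all genes, library totals alone gave 1451 lower, and leaving out the 3 libraries gave 80 higher and 25 lower. Other pathway genes higher numbered 3 with library totals alone and 0 without the 3 libraries. Those lower numbered 5 with upper-quartile scaling or DESeq2, 6 with library totals alone and 0 without the 3 libraries. Leaving out 1 library at a time gave 0 to 4 members higher, 1 to 2 lower, 0 to 1 chaperones lower, 0 to 2 ER degradation genes higher, 0 to 1 ATF4 targets higher, 645 to 1360 genes higher and 435 to 983 lower over all genes, and 2 to 9 other pathway genes higher and 1 to 3 lower. The cause of these changes was not tested. Without 1 or 3 libraries fewer samples are compared. Chaperone estimates below 0 numbered 10 to 12 of 15. No paired analysis was possible because the groups share no replicate number. Depth limits Trib3, with 0 to 13 counts a library.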

Other observations

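Pooled over the 37 tested members, the median coefficient of variation between libraries of 1 group was 7.63% untreated and 7.00% treated. Role groups went both ways. The median was 7.41% untreated and 2.66% treated for ER degradation, and 7.14% and 4.04% for eIF2 alpha and its phosphatase. For the transcription factors it was 7.45% untreated and 12.86% treated. These spreads were not tested. Libraries took extreme places unevenly among the 15 chaperone genes. Within the treated group, library 6 was highest for 8 and library 9 lowest for 8. Within the untreated group, library 4 was highest for 7 and library 5 lowest for 6. Treated 6 is also the deepest library, and CPM is scaled for depth.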
